A study of Mus musculus with 12 samples.

Results

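Alb, Ttr, Apoh, Apoc3, F2, Serpinc1, Serpina1d and Fetub encode proteins that liver secretes into plasma, and they are described here in mouse whole kidney after loss of the clock transcription factor BMAL1 (gene Arntl) from the tubules. They are 8 of the 38924 gene IDs counted. They were picked by symbol as liver-type secreted protein genes other than fibrinogen whose levels differed in opposite directions between knockout and wild type, so every knockout against wild-type value of these 8 genes below is a description and carries no test. Alb, F2, Serpinc1, Serpina1d and Fetub were lower in the knockout, and Ttr, Apoh and Apoc3 were higher.

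The 12 libraries formed 4 groups of 3, knockout (KO) and wild type (WT) at zeitgeber time 16 (ZT16, in the dark) and KO and WT at ZT4 (in the light), under 12 h light and 12 h dark. KO mice were Bmal1lox/lox/Pax8-rtTA/LC1 on a C57BL/6J background: the Pax8 promoter, active in tubule cells, drives a doxycycline-dependent activator that switches on Cre from the LC-1 transgene. Doxycycline was given at 2 mg/ml in drinking water for 2 weeks from 8 weeks of age. WT mice were littermates. The sample annotation used here lists the same doxycycline and starting age for the WT libraries. The labels do not state the treatment of WT mice separately, nor whether they carried any of these alleles. Cells that do not use the Pax8 promoter keep the gene in this model, and whole kidney mixes them with tubule cells. Nothing in the labels ties each library to its own animal, and p-values therefore reflect only how these libraries vary, which may be technical variation.

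Plasma proteins of this kind are made mainly by hepatocytes, whose promoters for them are driven by factors such as HNF4 and C/EBP. The proximal tubule shares HNF4 with hepatocytes, takes filtered plasma proteins back up through megalin and cubilin, and transcribes some of the same genes at low levels. DBP, a transcription factor under direct clock control, is named after the D site of the albumin promoter, where HLF, TEF and the repressor NFIL3 can also bind. RNA was measured here, not protein, so protein taken up from the filtrate does not enter these values.

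Each library held between 25628887 and 38043491 reads counted in genes, with 19624 to 20558 genes detected. Arntl itself lay between 12.3 and 15.01 CPM (counts scaled to library size by TMM) in KO and between 8.63 and 11.03 CPM in WT at ZT16, and between 14.4 and 16.2 CPM in KO and between 13.8 and 20.01 CPM in WT at ZT4. These counts cover the whole gene and the labels do not say which part is deleted, so they do not check the genotype labels. KO ZT16 replicate 2 stood apart from the other KO ZT16 libraries: mitochondrially encoded genes took 22.3% of its counts, against 14.1% and 14.0% in replicates 4 and 6, and results that leaving it out moved by over 1.5 times are also given without it. The same share was 12.6% to 12.8% in KO and 16.3% to 18.0% in WT at ZT4, and 18.7% to 22.4% in WT at ZT16. Summed markers of proximal tubule (8 genes) reached 11580 to 13530 CPM in KO and 14430 to 14720 CPM in WT at ZT16, and 13390 to 13630 CPM in KO and 14300 to 15150 CPM in WT at ZT4. The markers did not move together: Slc27a2, a fatty acid transporter, was called lower at both times (log2 fold change -0.59 at ZT16 and -0.41 at ZT4) and Slc7a13 at ZT4 (-0.73), while Slc34a1 and Slc5a2, the phosphate and glucose transporters, had 0.14 and 0.21 at ZT16 and 0.18 and 0.13 at ZT4 without passing the test. Over the 8 proximal tubule markers the median log2 fold change was -0.09 at ZT16 and -0.13 at ZT4, and 0 were called higher at either time. In whole tissue, fewer cells of a type and less RNA per cell cannot be told apart.

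Promoter sequences are shown for Alb, Serpina1d and F2, the members farthest below wild type, and for Apoh, a member above it. They are the 250 bases before the RefSeq transcript start in build GRCm38.p6, read 5′ to 3′ on the strand of the gene, and come from chr5:90460620-90460869 (plus) for Alb, chr12:103773634-103773883 (minus) for Serpina1d, chr2:91636458-91636707 (minus) for F2 and chr11:108395047-108395296 (plus) for Apoh. Capitals mark matches, on either strand, to the 7 motifs searched.
Alb: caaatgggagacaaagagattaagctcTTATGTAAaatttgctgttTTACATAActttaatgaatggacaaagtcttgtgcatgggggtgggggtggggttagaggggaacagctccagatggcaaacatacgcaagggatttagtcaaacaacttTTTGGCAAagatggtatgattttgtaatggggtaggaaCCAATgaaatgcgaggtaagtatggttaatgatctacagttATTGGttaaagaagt
Serpina1d: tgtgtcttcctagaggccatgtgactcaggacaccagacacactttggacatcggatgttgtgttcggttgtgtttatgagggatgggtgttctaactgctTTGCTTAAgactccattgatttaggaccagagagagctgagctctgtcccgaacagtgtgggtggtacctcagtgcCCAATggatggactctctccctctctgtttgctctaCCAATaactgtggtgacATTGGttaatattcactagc
F2: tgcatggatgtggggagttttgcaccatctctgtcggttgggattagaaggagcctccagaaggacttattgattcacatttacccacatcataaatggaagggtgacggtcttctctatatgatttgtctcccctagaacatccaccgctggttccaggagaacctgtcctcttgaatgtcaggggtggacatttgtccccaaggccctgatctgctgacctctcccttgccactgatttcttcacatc
Apoh: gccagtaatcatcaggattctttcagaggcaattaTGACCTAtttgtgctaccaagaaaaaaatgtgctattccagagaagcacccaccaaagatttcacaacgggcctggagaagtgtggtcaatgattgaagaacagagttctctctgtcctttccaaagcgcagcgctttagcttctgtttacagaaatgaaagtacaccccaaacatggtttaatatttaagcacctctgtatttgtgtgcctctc
The Alb window held D-box matches at positions -223 to -216 and -204 to -197 from the start, a C/EBP match at -94 to -87, and a CCAAT box at -56 to -52 and another on the opposite strand at -15 to -11. The D site of the albumin promoter named above was not located by this search, and neither D-box match is taken for it. The Serpina1d window held CCAAT boxes at -73 to -69, -37 to -33 and, on the opposite strand, -20 to -16, and a C/EBP match at -149 to -142. Apoh held 1 match, a RORE at -215 to -209, and F2 held none. The motifs were the D-box TTANGTAA, found in 2.06% of the 32851 RefSeq mouse promoters, the C/EBP site TTGCNNAA (9.56%), the CCAAT box (33.8%), the TATA box TATAAA (12.4%), the E-box CACGTG (6.02%), the RORE TAGGTCA (2.23%) and the HNF4 sites CAAAGTCCA or CAAAGGTCA (0.807%). Of the 8 genes, 6 had an entry. Serpinc1 held no match, and the first of the Fetub windows held TATAAA at -31 to -26 and a CCAAT box on the opposite strand at -218 to -214. A match describes letters in the window and not a bound site.

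Of the 8 genes, Alb was the farthest below wild type and Ttr the farthest above, and both encode carriers. Alb, which encodes the main carrier and osmotic protein of plasma (ENSMUSG00000029368, GRCm38 chr5:90460897-90476602, plus strand), had 3.90, 1.59 and 1.08 CPM in KO ZT16 replicates 2, 4 and 6, against 16.3, 9.56 and 12.6 CPM in WT ZT16 replicates 1, 3 and 5. At ZT4 it had 1.16, 1.09 and 1.16 CPM in KO, against 9.44, 9.17 and 7.90 CPM in WT, with the libraries in the same order as everywhere below. The genotypes did not overlap at either time, and the highest KO value came from KO ZT16 replicate 2, the library that stood apart. The fitted log2 fold change (KO over WT) was -2.55 ± 0.34 (SE) at ZT16, or 5.85-fold lower, and -2.96 ± 0.36 at ZT4, or 7.77-fold lower, and without that library it was -3.24 at ZT16. The KO values rest on 30 to 114 reads per library.

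Ttr, which encodes transthyretin, a carrier of thyroid hormone and of retinol-binding protein (ENSMUSG00000061808, chr18:20665280-20674321, plus), had 119, 126 and 146 CPM in KO and 68.5, 54.6 and 77.3 CPM in WT at ZT16. At ZT4 it had 144, 139 and 198 CPM in KO and 81.2, 88.4 and 73.4 CPM in WT. Every KO library lay above every WT library. The log2 fold change was 0.96 ± 0.16 at ZT16 and 0.98 ± 0.16 at ZT4, a 1.95-fold and a 1.98-fold higher level in KO.

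Apoh and Apoc3 were also higher in KO. Apoh encodes beta-2-glycoprotein I, which binds anionic phospholipids (ENSMUSG00000000049, chr11:108343354-108414396, plus), and had 44.2, 25.1 and 30.2 CPM in KO against 17.8, 16.6 and 22.6 CPM in WT at ZT16, and 28.2, 27.3 and 29.4 CPM in KO against 14.8, 23.0 and 12.5 CPM in WT at ZT4. The groups did not overlap, but WT ZT4 replicate 3 and KO ZT16 replicate 2 were each the highest of their group. The log2 fold change of 0.80 ± 0.23 at ZT16 was 0.53 without KO ZT16 replicate 2, and that of 0.76 ± 0.23 at ZT4 was 1.05 without WT ZT4 replicate 3. Apoc3, whose product inhibits lipoprotein lipase (ENSMUSG00000032081, chr9:46232933-46235636, minus), had 9.51, 7.21 and 8.75 CPM in KO against 6.19, 4.43 and 5.76 CPM in WT at ZT16. At ZT4 it had 6.39, 8.49 and 9.09 CPM in KO against 5.62, 5.11 and 5.18 CPM in WT. These groups were close but did not overlap, with log2 fold changes of 0.64 ± 0.17 and 0.59 ± 0.17.

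The 2 clotting members were lower in KO, and F2 lay close to the filter threshold there. F2 encodes prothrombin, the precursor of thrombin (ENSMUSG00000027249, chr2:91625320-91636414, minus), and had 0.103, 0.357 and 0.289 CPM in KO, from 3, 13 and 8 reads, against 1.10, 0.841 and 1.08 CPM in WT at ZT16. At ZT4 it had 0.396, 0.231 and 0.272 CPM in KO, from 15, 10 and 8 reads, against 1.17, 0.864 and 1.19 CPM in WT. No KO library reached any WT library. The log2 fold changes were -1.95 ± 0.34 at ZT16 (-1.61 without KO ZT16 replicate 2) and -1.84 ± 0.32 at ZT4. Serpinc1 encodes antithrombin, which inhibits thrombin and factor Xa (ENSMUSG00000026715, chr1:160978585-161005863, plus), and had 1.47, 1.62 and 1.70 CPM in KO against 1.82, 3.36 and 2.53 CPM in WT at ZT16, and 1.32, 1.64 and 1.02 CPM in KO against 3.38, 1.73 and 2.42 CPM in WT at ZT4. The groups lay close together at both times without overlapping. Its log2 fold changes were -0.70 ± 0.28 at ZT16, where leaving out WT ZT16 replicate 3 gave -0.46, and -0.91 ± 0.28 at ZT4. Of its exonic bases, 34.4% overlap Zbtb37 on the opposite strand, and the strand setting of the counting is not given, so part of its reads may belong to that gene.

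The protease inhibitors were lower in KO. Serpina1d encodes a mouse alpha-1-antitrypsin (ENSMUSG00000071177, chr12:103763594-103773592, minus) and had 24.8, 14.3 and 15.9 CPM in KO against 66.5, 43.9 and 86.0 CPM in WT at ZT16, and 13.5, 11.8 and 14.1 CPM in KO against 43.4, 61.6 and 70.2 CPM in WT at ZT4. All 6 KO values lay well below all 6 WT values. The log2 fold change was -1.84 ± 0.26 at ZT16 and -2.15 ± 0.27 at ZT4. Of its transcript's 50-base words, 50.9% also occur in other genes, among them its paralogs Serpina1a, Serpina1b, Serpina1c and Serpina1e, so its level is uncertain. Fetub, which encodes fetuin-B, an inhibitor of an egg protease (ENSMUSG00000022871, chr16:22918334-22939778, plus), had 1.33, 0.823 and 0.796 CPM in KO against 2.34, 1.54 and 1.87 CPM in WT at ZT16. At ZT4 it had 0.555, 0.995 and 0.715 CPM in KO against 1.31, 0.752 and 1.10 CPM in WT. It was the only one of the 8 whose groups overlapped, and only at ZT4. Its log2 fold changes were -0.96 ± 0.28 at ZT16 and -0.48 ± 0.30 at ZT4, with -0.76 without KO ZT4 replicate 4 and -0.29 without WT ZT4 replicate 1.

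**Figure D1:**
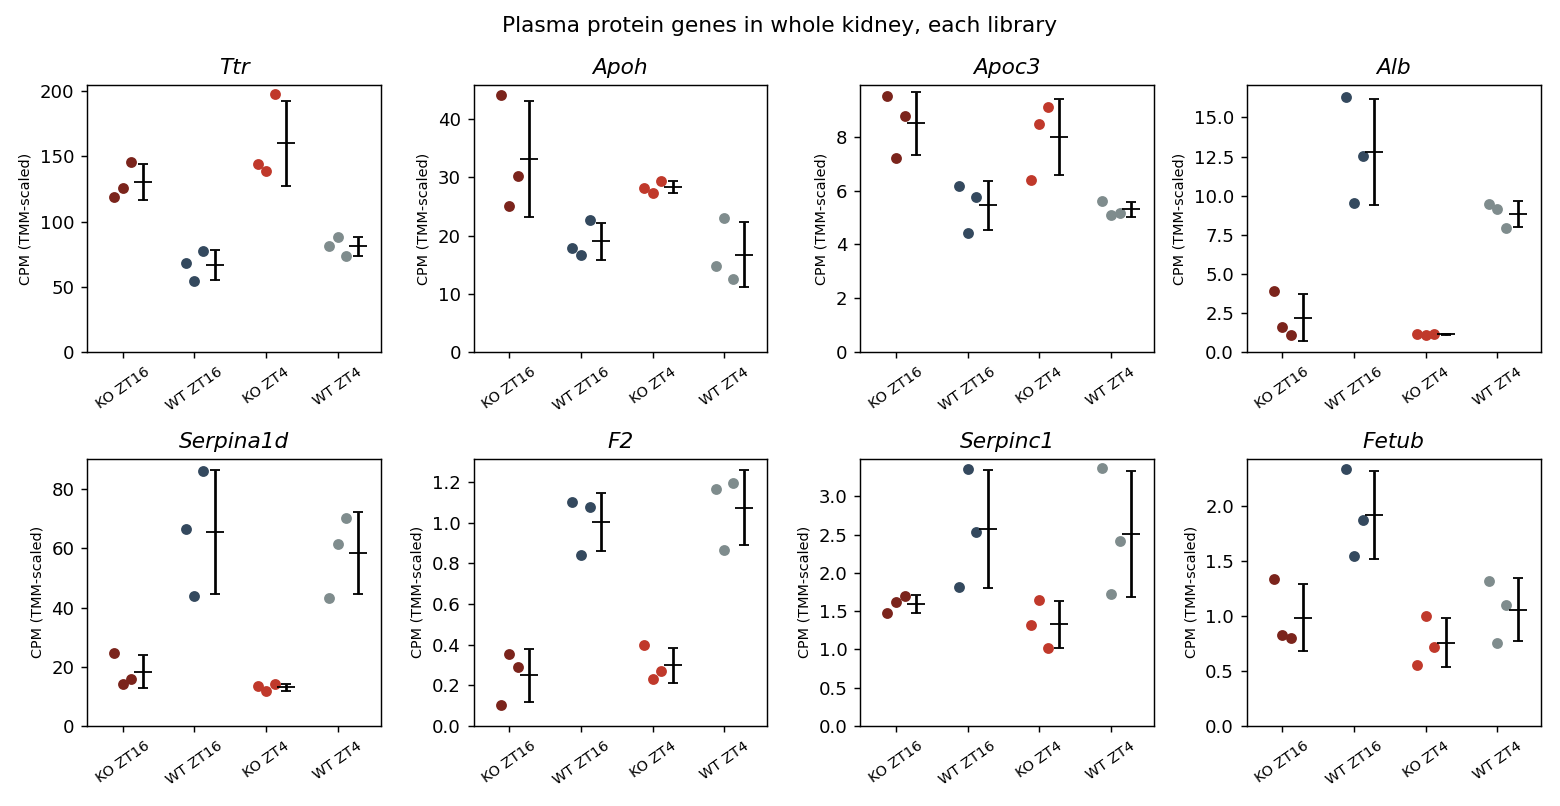
TMM-scaled CPM (y axis, linear, from 0) of the 8 genes in KO ZT16, WT ZT16, KO ZT4 and WT ZT4. Points are the 3 libraries of a group and the dash with a bar is their mean ± SD: Alb averaged 2.19 ± 1.5 CPM in KO and 12.8 ± 3.37 CPM in WT at ZT16, and Ttr 130 ± 13.9 CPM in KO and 66.8 ± 11.4 CPM in WT.

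KO and WT libraries did not overlap for 8 of 8 genes at ZT16, beside 15.9% of the 16150 genes tested, and for 7 of 8 at ZT4, beside 37.7%. Since the 8 were chosen on this contrast, nothing is read from these counts. The sum of the 8 ran from 177 to 205 CPM in KO and from 135 to 210 CPM in WT at ZT16, and from 190 to 253 CPM in KO and from 160 to 191 CPM in WT at ZT4. The sums overlapped between the genotypes at both times. All 8 genes passed the filter on low counts, whose threshold was 0.300 CPM before TMM scaling. F2 exceeded it in 4 of 6 KO and 6 of 6 WT libraries, and the others in all 12. Without KO ZT16 replicate 2, the log2 fold changes at ZT16 were 1.01 for Ttr, 0.54 for Apoc3, -0.66 for Serpinc1, -2.13 for Serpina1d and -1.24 for Fetub.

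**Figure D2:**
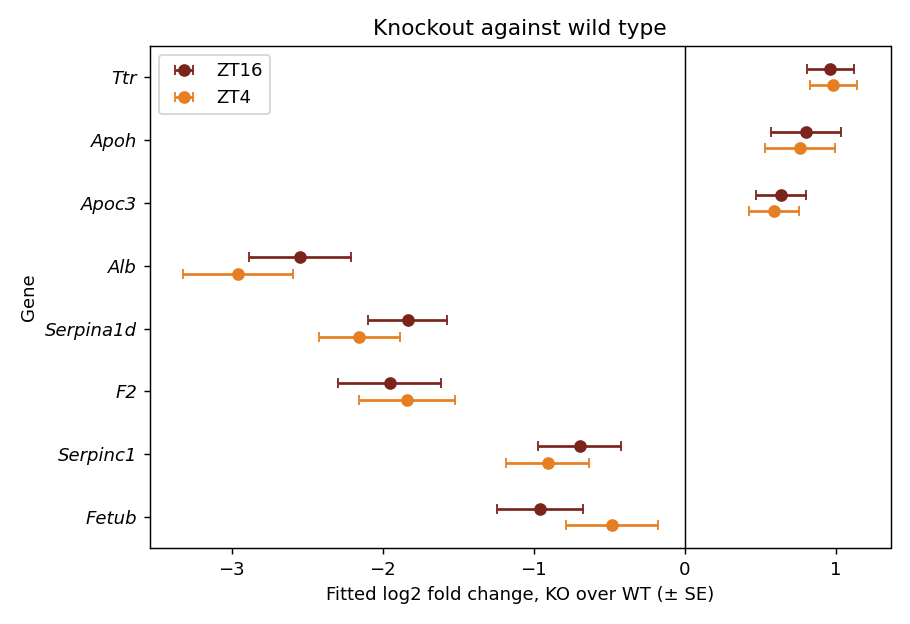
Fitted log2 fold change of KO over WT (x axis) for each gene at ZT16 and ZT4, with bars of ± SE. Ttr, Apoh and Apoc3 lie right of 0 and the other 5 genes left of it, from -0.48 for Fetub to -2.96 for Alb, both at ZT4.

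Levels of different genes were compared per kilobase of exon (RPKM). In KO at ZT16 the order was Ttr (mean 110 RPKM), Apoh (20.8), Serpina1d (13.2), Apoc3 (8.37), Alb (0.936), Fetub (0.502), Serpinc1 (0.187) and F2 (0.0543). In WT at ZT16 it was Ttr (56.3 RPKM), Serpina1d (47.0), Apoh (11.9), Alb (5.47), Apoc3 (5.38), Fetub (0.977), Serpinc1 (0.301) and F2 (0.219). Albumin thus ranked between Apoh and Apoc3 in WT libraries at ZT16 and below Apoc3 in KO. Library values overlapped between Apoh and Serpina1d and between Alb and Fetub in KO at ZT16, and between Ttr and Serpina1d, Alb and Apoc3, and Serpinc1 and F2 in WT. At ZT4 the order in KO was Ttr (135 RPKM), Apoh (17.8), Serpina1d (9.42), Apoc3 (7.88), Alb (0.485), Fetub (0.385), Serpinc1 (0.155) and F2 (0.0653), and in WT it was Ttr (68.3), Serpina1d (41.9), Apoh (10.5), Apoc3 (5.23), Alb (3.77), Fetub (0.538), Serpinc1 (0.294) and F2 (0.234). Overlaps at ZT4 were between Serpina1d and Apoc3 and between Alb and Fetub in KO, and between Fetub, Serpinc1 and F2 in neighbouring pairs in WT.

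Whether the 8 genes differ between the dark and the light was not used to choose them and was tested with edgeR's quasi-likelihood test, Benjamini-Hochberg adjusted over all tested genes. None of the 8 was called at an adjusted p under 0.05, beside 10.5% of all genes in KO and 6.5% in WT. At an unadjusted edgeR p under 0.05 there was 1 in KO and 1 in WT, beside 5862 and 4737 of the 16150 genes tested. DESeq2 called 1 in KO (Alb) and 0 in WT, beside 3705 and 2149 of all genes.

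In KO, Alb averaged 2.19 ± 1.5 CPM at ZT16 and 1.14 ± 0.0419 CPM at ZT4 (SD, n = 3 each), a log2 difference of 0.94 ± 0.39 (adjusted p = 0.107, edgeR). Of the 3 ZT16 libraries, 2 lay above the ZT4 values and 1 just below them. The value was 0.26 without KO ZT16 replicate 2 (adjusted p = 0.586 by edgeR). Without KO ZT16 replicate 6 it was 1.25 and passed the threshold (adjusted p = 0.0306 by edgeR). With DESeq2 the difference was 0.96 (adjusted p = 0.0399). In WT, Alb averaged 12.8 ± 3.37 CPM at ZT16 and 8.84 ± 0.820 CPM at ZT4, without overlap (0.53 ± 0.30, adjusted p = 0.247, and 0.0223 without KO ZT16 replicate 2, which enters through the shared spread).

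Fetub in WT had the smallest adjusted p among the 8. It averaged 1.92 ± 0.400 CPM at ZT16 and 1.06 ± 0.284 CPM at ZT4, and every ZT16 library exceeded every ZT4 library. The log2 difference of 0.84 ± 0.28 had an adjusted p of 0.0869 by edgeR, with 0.0373 when only the 6 WT libraries were fitted and 0.0202 without KO ZT16 replicate 2. In KO the difference was 0.36 ± 0.31 (adjusted p = 0.405), with 0.080 without KO ZT16 replicate 2 and 0.64 without KO ZT4 replicate 4.

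Ttr did not pass the test in either genotype, with a log2 difference of -0.30 ± 0.15 in KO (adjusted p = 0.178) and -0.28 ± 0.16 in WT (adjusted p = 0.238). Serpina1d differed by 0.48 ± 0.26 in KO, without overlap between the times (adjusted p = 0.198), by 0.20 without KO ZT16 replicate 2 (adjusted p = 0.628), and by 0.16 ± 0.25 in WT (adjusted p = 0.674). Apoh, Apoc3, F2 and Serpinc1 lay between -0.23 and 0.25 in both genotypes, with adjusted p from 0.481 to 0.938. Without KO ZT16 replicate 2 the KO differences were -0.24 for Ttr, -0.042 for Apoh, -0.0090 for Apoc3, 0.12 for F2 and 0.29 for Serpinc1. Groups did not overlap between the times for 1 gene in KO, beside 43.3% of all genes, and for 2 in WT, Alb and Fetub, beside 42.6%.

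The difference between the genotypes in the time effect, tested as an interaction, ran from -0.47 ± 0.42 for Fetub to 0.41 ± 0.49 for Alb. Without KO ZT16 replicate 2 it was -0.76 for Fetub and -0.28 for Alb. None of the 8 was called, by edgeR or DESeq2, beside 0.0186% of all genes called by edgeR. None had an unadjusted edgeR p under 0.05, beside 540 of the 16150 genes tested. The interaction is the difference of the KO against WT values at ZT16 and ZT4. The 8 were chosen on such values, so this test is not free of that choice. The SEs of 0.22 to 0.49 on the log2 scale limit what could be detected.

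**Figure D3:**
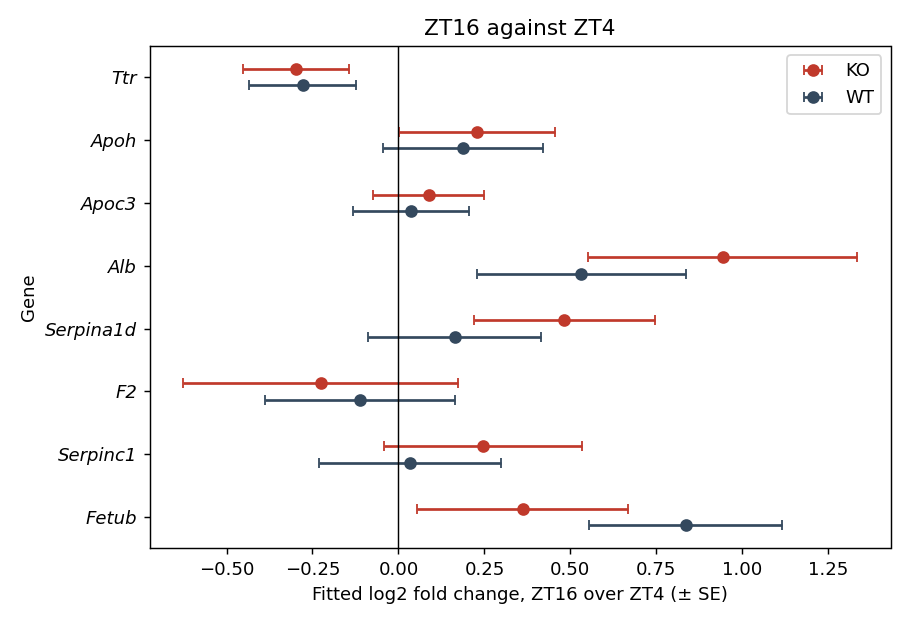
Fitted log2 difference of ZT16 over ZT4 (x axis) for the 8 genes in KO and WT, with bars of ± SE. No gene passed the adjusted threshold, and the values run from -0.30 for Ttr to 0.94 for Alb, both in KO.

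Other liver-type plasma protein genes were taken from 5 lists (carriers, apolipoproteins, clotting and kinin, protease inhibitors, complement and acute phase), without the 8 genes and fibrinogen. Of 91 genes counted, 62 passed the filter. In KO at ZT16, 6 were higher and 8 lower, together 22.6% of the 62 and beside 4.03% of all tested genes (2.07% higher and 1.96% lower). At ZT4, 5 were higher and 9 lower, again 22.6%, beside 3.29% (1.63% higher and 1.66% lower). The median log2 fold change over the 62 was -0.05 at ZT16 and -0.09 at ZT4, beside 0.02 and 0.00 over all tested genes. Of these, 3 were higher at both times (Cp, Apob and Serpind1) and 8 lower at both (Hrg, Proc, Serpina1a, C2, C4b, C8a, Mbl1 and Masp2), which is 78.6% of the genes called at each time. With only the 6 ZT16 libraries fitted, 1 was higher and 2 lower at ZT16. The counts also moved when single libraries were left out, and so did those over all tested genes. Over all genes, 651 calls at ZT16 and 531 at ZT4 became 5099 and 2503 without KO ZT16 replicate 2. Other leave-outs gave as few as 380 and 228, and the 6 ZT16 libraries alone gave 200. The shifts in the 62 plasma genes, given next, are therefore not particular to them. At ZT16 the higher genes numbered 3 without WT ZT16 replicate 3. The lower ones numbered 2 without KO ZT16 replicate 4, 3 without KO ZT16 replicate 6 or WT ZT16 replicate 1, 4 without KO ZT4 replicate 2 or 6 or WT ZT16 replicate 5, 5 without KO ZT4 replicate 4 or WT ZT16 replicate 3, and 16 without KO ZT16 replicate 2. At ZT4 the higher genes numbered 1 without KO ZT4 replicate 2 or WT ZT4 replicate 3 or 5, 2 without KO ZT4 replicate 6, 3 without KO ZT4 replicate 4 or WT ZT16 replicate 1, and 8 without KO ZT16 replicate 2. The lower ones numbered 3 without KO ZT4 replicate 6 or WT ZT4 replicate 1 or 3, and 4 without KO ZT4 replicate 2 or 4. Hrg, Serpina1a and Serpind1 kept their calls at both times in every leave-out and setting tried.

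Among carriers, 2 of 11 tested were higher and 1 lower at each time. Hrg, histidine-rich glycoprotein, fell to 1.44 ± 0.0658 CPM in KO, against 6.76 ± 1.89 CPM in WT, at ZT16 (log2 fold change -2.24, adjusted p = 0.000193 by edgeR). It had 1.47 ± 0.373 CPM in KO and 7.59 ± 1.42 CPM in WT at ZT4 (-2.35, adjusted p = 0.000162). Serpina7, thyroxine-binding globulin, rose by 2.37 at ZT16 (adjusted p = 0.00439 by edgeR, and 0.0591 when only the 6 libraries compared were fitted) and had 1.70 at ZT4 (adjusted p = 0.0634). Its WT libraries together held only 26 reads at ZT16 and 19 at ZT4, against 135 and 75 in KO. Cp, the copper carrier ceruloplasmin, rose by 0.57 at ZT16 (adjusted p = 0.0338) and 0.65 at ZT4 (adjusted p = 0.0225). Its ZT16 call was lost in 6 of 12 leave-outs (adjusted p up to 0.139, without WT ZT16 replicate 3) and with only the 6 libraries compared (0.0881). Gc, the vitamin D-binding protein, rose at ZT4 (0.44, adjusted p = 0.0249) and had 0.23 at ZT16 (adjusted p = 0.253). The ZT4 calls of Cp and Gc were each lost when KO ZT4 replicate 2 or 6 or WT ZT4 replicate 3 or 5 was left out (adjusted p up to 0.119 and 0.126). Of 8 apolipoprotein genes, 1 was called at each time: Apob, the structural protein of very-low-density and low-density lipoprotein, rose by 0.48 at ZT16 and 0.41 at ZT4 (adjusted p = 0.0144 and 0.0399), with the ZT16 call lost without WT ZT16 replicate 3 (adjusted p = 0.0760) or with only the 6 libraries compared (adjusted p = 0.130), and the ZT4 call lost in 9 of 12 leave-outs (up to 0.170, without KO ZT4 replicate 2).

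Of 15 clotting and kinin genes, 2 were higher and 1 lower at ZT16, and 1 higher and 1 lower at ZT4. Serpind1, heparin cofactor II, another inhibitor of thrombin, rose to 1.34 ± 0.530 CPM in KO, against 0.218 ± 0.0854 CPM in WT, at ZT16 and to 1.89 ± 0.331 CPM in KO, against 0.535 ± 0.107 CPM in WT, at ZT4. Its log2 fold changes were 2.56 and 1.79 (adjusted p = 0.00145 and 0.00611 by edgeR), and its WT libraries together held 21 reads at ZT16 and 50 at ZT4. Serpind1 thus went the opposite way to Serpinc1, the other thrombin inhibitor listed, whose values are given above without a test. Kng1, kininogen, rose by 1.5 at ZT16 (adjusted p = 0.00886, and 0.0588 with only the 6 libraries compared) and had 0.76 at ZT4 (adjusted p = 0.177). Proc, the anticoagulant protein C, fell by 0.27 at ZT16 and by 0.33 at ZT4 (adjusted p = 0.0329 and 0.0138), the ZT4 call being lost without KO ZT4 replicate 4 or 6 or WT ZT4 replicate 1 or 3 (adjusted p up to 0.0921) and the ZT16 call in 8 of 12 leave-outs (up to 0.125, without KO ZT16 replicate 4). The ZT16 call of Proc was also lost with no expression filter (adjusted p = 0.110) and with only the 6 libraries compared (0.318).

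Of 10 protease inhibitor genes, 1 was lower at ZT16 and 2 at ZT4, and none was higher. Serpina1a, an alpha-1-antitrypsin paralog that shares sequence with Serpina1d, fell to 5.90 ± 2.09 CPM in KO, against 16.9 ± 3.07 CPM in WT, at ZT16 (log2 fold change -1.52, adjusted p = 0.00299 by edgeR) and had -1.51 at ZT4 (adjusted p = 0.00365). Reads shared with Serpina1d could move both together. Serpina1b had -0.90 at ZT16 and -1.14 at ZT4 and Serpina1c had 0.34 and 0.54, none passing the test (adjusted p = 0.0936 to 0.478), while Serpina1e was too low to be tested.

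Of 18 complement and acute phase genes, 1 was higher and 5 were lower at each time. C8a, a chain of the membrane attack complex, fell to 23.0 ± 3.02 CPM in KO, against 34.6 ± 5.20 CPM in WT, at ZT16 (adjusted p = 0.0405 by edgeR) and to 17.7 ± 1.22 CPM in KO, against 34.0 ± 5.68 CPM in WT, at ZT4 (adjusted p = 0.00324). The ZT4 call of C8a held in all 12 leave-outs. Its ZT16 call was lost in 8 (adjusted p up to 0.166, without WT ZT16 replicate 5) and with only the 6 libraries compared (0.159). C2 and C4b, which form the classical C3 convertase, fell by 0.58 and 0.86 at ZT16 (adjusted p = 0.0119 and 0.0156) and by 0.47 and 0.84 at ZT4 (adjusted p = 0.0467 and 0.0237). Their ZT16 calls were lost with only the 6 libraries compared (adjusted p = 0.0804 and 0.0717) and without WT ZT16 replicate 3 or KO ZT16 replicate 4, as was that of C2 without KO ZT16 replicate 6 and that of C4b without WT ZT16 replicate 1. Their ZT4 calls were lost in 10 and 4 of 12 leave-outs (adjusted p up to 0.208 and 0.114, both without WT ZT4 replicate 1), and that of C2 also with no expression filter (0.0572). Mbl1 and Masp2, a lectin and a protease of the lectin pathway, fell by 1.27 and 1.78 at ZT16 (adjusted p = 0.0306 and 0.0426) and by 1.48 and 1.77 at ZT4 (adjusted p = 0.0230 and 0.0495). These calls too were lost in 5 to 9 of 12 leave-outs, with adjusted p up to 0.208 for Masp2 without KO ZT4 replicate 4. The ZT16 calls of Mbl1 and Masp2 were also lost with only the 6 libraries compared (adjusted p = 0.214 and 0.212). Cfi, complement factor I, rose at ZT4 (0.63, adjusted p = 0.0353) but lost its call in 6 of 12 leave-outs (up to 0.155, without WT ZT4 replicate 3). Apcs, the acute phase protein serum amyloid P, rose at ZT16 (1.62, adjusted p = 0.0172), its call being lost without any 1 of the WT ZT16 libraries (up to 0.0822) and with only the 6 libraries compared (0.108). It had 1.11 without KO ZT16 replicate 2 (adjusted p = 0.00454). Summed macrophage markers, a cell type that also makes complement, were 141 to 183 CPM in KO and 181 to 225 CPM in WT at ZT16, and 159 to 183 CPM in KO and 208 to 285 CPM in WT at ZT4. Their part in these values was not tested.

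**Figure D4:**
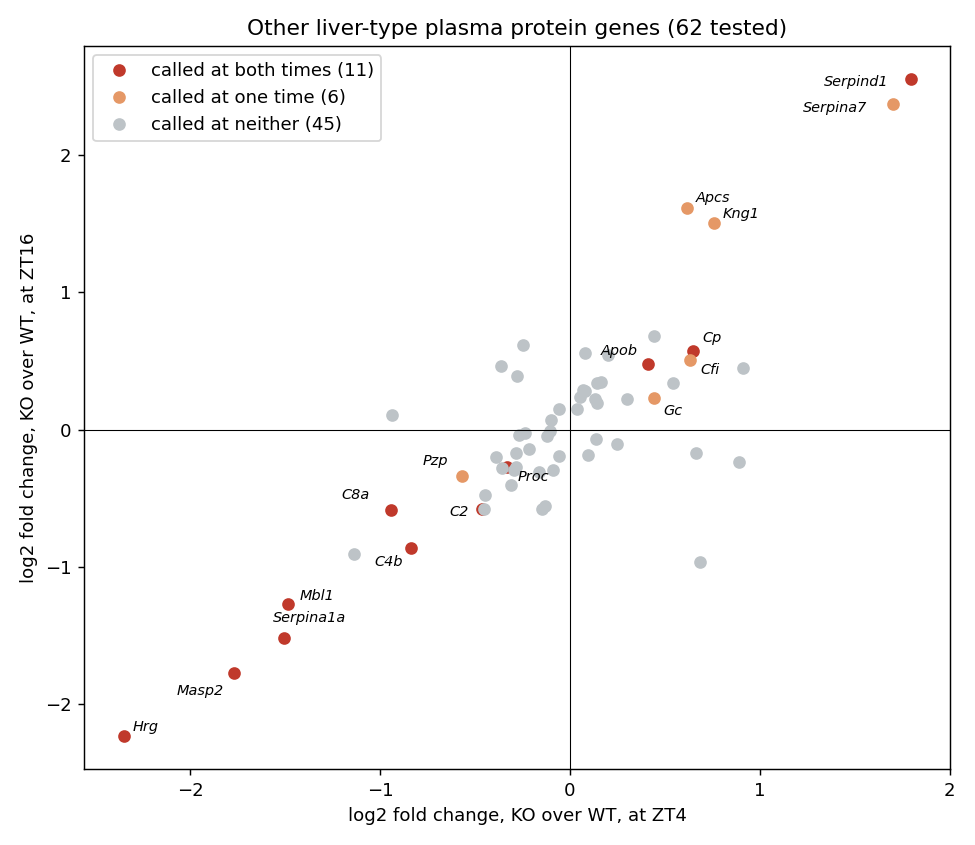
Log2 fold change of KO over WT at ZT16 (y axis) against ZT4 (x axis) for the 62 other plasma protein genes tested, coloured by whether each was called at both times, at 1 time or at neither. Hrg lies lowest and Serpind1 highest at ZT16.

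Between the times, 2 of the 62 other plasma genes were called in KO (3.23%) and 1 in WT (1.61%), beside 10.5% and 6.5% of all genes. The numbers were 3 in KO and 18 in WT without KO ZT16 replicate 2, beside 1309 and 5473 of all genes. In the main fit, 1691 and 1050 of all genes were called, so the rise in WT is not particular to plasma genes. Plg, plasminogen, fell to 0.123 ± 0.0821 CPM at ZT16 in KO, against 0.583 ± 0.0750 CPM at ZT4 (adjusted p = 0.0133 by edgeR), and Proz, protein Z, fell by 0.65 (adjusted p = 0.0184). For Plg the KO libraries together held only 11 reads at ZT16 and 65 at ZT4, and DESeq2 gave it no adjusted p. Apoe, an apolipoprotein that kidney cells also make, rose by 0.52 in WT (adjusted p = 0.0320). These calls were lost when some single libraries were left out: for Plg KO ZT4 replicate 4 (adjusted p = 0.0537), for Proz any KO ZT4 library (adjusted p up to 0.0710), and for Apoe any of WT ZT16 replicates 1 and 5, KO ZT4 replicate 6 and WT ZT4 replicates 3 and 5 (up to 0.139). Plg and Proz also lost theirs with only the 6 KO libraries (adjusted p = 0.0671 and 0.0865).

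The fibrinogen chains Fga, Fgb and Fgg, which form the clot, rose in KO by 2.37, 2.33 and 3.27 at ZT16 and by 2.06, 1.79 and 3.07 at ZT4 (adjusted p at most 0.00184 by edgeR). Of the 20 regulators of such genes that were tested, 1 was higher and 4 lower at ZT16 (25%), and 4 were higher and 4 lower at ZT4 (40%). Dbp fell to 7.95 ± 1.89 CPM in KO, against 21.8 ± 1.25 CPM in WT, at ZT16, and to 9.70 ± 2.36 CPM in KO, against 28.6 ± 4.55 CPM in WT, at ZT4 (adjusted p = 0.00115 and 0.000847 by edgeR). Tef fell by 0.60 at ZT16 (adjusted p = 0.00305) and by 0.39 at ZT4 (adjusted p = 0.0423, lost in 10 of 12 leave-outs, up to 0.168 without WT ZT4 replicate 3). Nfil3, the repressor of the D-box, rose by 1.64 at ZT4 (adjusted p = 0.00508) and had 0.33 at ZT16 (adjusted p = 0.573), and Hlf had -0.05 at ZT16 and 0.44 at ZT4 (adjusted p = 0.875 and 0.0644). At ZT4 Hlf passed the threshold with DESeq2 (adjusted p = 0.0185), with only the 6 libraries compared (0.00958) and without KO ZT16 replicate 2 (0.0114). Hnf4a had -0.12 at ZT16 and -0.13 at ZT4 (adjusted p = 0.666 and 0.550). Without KO ZT16 replicate 2, Hlf and Hnf4a had 0.0030 and 0.0069 at ZT16. Cebpa and Cebpb had 0.17 and -0.52 at ZT16 without passing the test, and rose by 0.49 and 0.98 at ZT4 (adjusted p = 0.0484 and 0.0285), with the calls lost in 9 and 4 of 12 leave-outs (adjusted p up to 0.209 without WT ZT4 replicate 1 and 0.121 without KO ZT4 replicate 6) and that of Cebpa also under RLE scaling (0.0524). With no expression filter, the ZT4 calls of Tef and Cebpa were lost too (adjusted p = 0.0595 and 0.0581). Whether any of the fibrinogen chains or regulators bears on the 8 genes was not tested.

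Hepatocyte genes that are not secreted were near 0. The 14 markers summed to 1.18 to 1.88 CPM in KO and 1.41 to 2.05 CPM in WT at ZT16, and to 0.919 to 1.32 CPM in KO and 1.26 to 1.95 CPM in WT at ZT4. Cyp7a1, the rate-limiting enzyme of bile acid synthesis, and Tat, tyrosine aminotransferase, had 0 counts in all 12 libraries. Only Slc10a1, the bile acid transporter NTCP, passed the filter, and it was not called at either time. Adipocyte markers summed to 44.6 to 162 CPM in KO and 78.1 to 86.8 CPM in WT at ZT16, and red blood cell markers to 175 to 494 CPM in KO and 277 to 376 CPM in WT, with both maxima in KO ZT16 replicate 2, the library with the highest Alb, Apoh, Apoc3, Serpina1d and Fetub of its group. The same library also had the highest sum of its group for hepatocyte, thick limb and distal, collecting duct, endothelium, fibroblast and adrenal markers. Markers of proximal tubule, podocyte and macrophage peaked in other KO ZT16 libraries. The part of any of these cell types in the plasma gene values of that library was not tested.

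The genes whose log2 CPM followed each member most closely over the 12 libraries, among genes averaging at least 5 CPM, are given with Pearson's r as a description, since the libraries share genotype and time. Spearman's rho for the same pairs ran from 0.811 to 0.965. Alb was followed by Ces1d (r = 0.984), Napsa (0.983) and Slc46a3 (0.980), and Serpina1d by Napsa (0.966), Cyp2a4 (0.966) and Ldhd (0.964). Napsa stood in both lists, and Alb and Serpina1d themselves had r = 0.962. Ttr was followed by Aqp8 (0.950), Rbm38 (0.945) and Asxl3 (0.941), Apoh by Paxx (0.952), and Apoc3 by Echdc3 (0.965), Parp9 (0.948) and Igfbp7 (0.918). F2 was followed by Ak3 (0.976), 4931406C07Rik (0.958) and Aldh9a1 (0.952). Serpinc1 was followed by Tubb6 (0.900), Fhl2 (0.861) and Atp6v0c-ps2 (0.854), and Fetub by Rusc1 (0.919), Tmx2 (0.918) and Gchfr (0.909). Alb and Ttr ran opposite to each other (r = -0.91).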

How the data were processed

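Poly(A) RNA of 12 whole-kidney libraries (500 ng each, stranded TruSeq, per the labels' protocols) was deposited by the authors as read counts per gene, with no normalization. Per the submitters' processing notes, cutadapt 1.2.1, TopHat2 2.0.9 and HTSeq 0.5.4p3 were used with GRCm38. How HTSeq handled strand and overlaps, and with which annotation, is not given in the sources used here. Lines for unassigned reads stayed out of library sizes: 3.50% to 5.96% of a library fell in no feature, 0.411% to 0.534% was ambiguous, and 30.8% to 43.0% did not align uniquely. GENCODE M21 named 37607 of the 38924 IDs and gave coordinates and exon lengths, and the exon lengths were used for RPKM.

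The counts were filtered with filterByExpr (minimum count 10), leaving 16150 genes, scaled by TMM and fitted with edgeR 4.0.16 quasi-likelihood in R 4.3.3, all 12 libraries in 1 fit of 4 groups (8 residual degrees of freedom). A gene is called at a Benjamini-Hochberg adjusted p under 0.05 over all tested genes. CPM are TMM-scaled, log2 CPM used a prior count of 2, and errors are SE of the fit or SD over 3 libraries. Alternatives were RLE scaling, no filter, DESeq2 1.42.0, only the 6 libraries compared, the replicate number as a block and each library left out. The steps were tested on simulated data.

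The members and lists were chosen with earlier results of these data known. Named were the 8 members, the fibrinogen chains, 7 regulators, up to 4 called plasma genes per comparison and direction by adjusted p, and for each member the 3 genes of highest correlation. Some genes this rule allows are not reported here. Mbl1, Masp2 and Apcs, and some values of other named genes at the other time, were added after their values were seen.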

Additional observations from a re-analysis of the deposited data

How the results depend on the processing

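For knockout against wild type, 255 of 256 alternative values of the 8 genes moved by less than the within-group SD of that gene's log2 CPM between libraries, and the other was Alb at ZT16 without KO ZT16 replicate 2 (-3.24). Leaving out 1 of 3 libraries moves a group mean by less than that group's SD, and libraries of the other time barely enter. This measure could therefore hardly fail, and nothing about stability is read from it. Counts of called genes moved most. DESeq2 called 1008 genes at ZT16 and 1061 at ZT4 for knockout against wild type, 3705 in KO and 2149 in WT between the times, and 18 for the interaction, where edgeR called 651, 531, 1691, 1050 and 3. With only the 6 libraries compared the counts were 200, 2877, 36 and 3557. Leaving out single libraries gave 380 to 5099 at ZT16, 228 to 2503 at ZT4, 181 to 3629 in KO and 220 to 5473 in WT between the times, and 3 to 8 for the interaction. The other plasma genes at ZT16 numbered 1 higher and 2 lower with only the 6 libraries compared, and 3 to 8 and 2 to 16 when single libraries were left out. At ZT4 they numbered 1 to 8 and 3 to 13. Between the times they numbered 9 (DESeq2), 0 (6 libraries) and 0 to 11 (libraries left out) in KO, and 4, 9 and 0 to 18 in WT. The cause was not tested.

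Replicate numbers are shared between the times within a genotype. Same-numbered libraries deviated together with r from -0.0509 to -0.0029 in KO and from -0.266 to 0.0542 in WT. Differently numbered ones had r from -0.0784 to 0.091 in KO and from -0.186 to 0.224 in WT. No pairing was seen, but with 3 libraries per group this check cannot exclude one. With the replicate block the counts were 189 in KO, 229 in WT and 1 for the interaction, with 0 other plasma genes in either genotype, and Ttr and Apoh changed sign in the interaction (0.0034 and -0.027). Knockout against wild type could not be fitted with the block, since the numbers are nested in genotype.

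Small time differences changed sign when a library was left out: in KO Apoh (-0.042 to 0.40), F2 (-0.62 to 0.12) and Apoc3 (-0.0504 to 0.20), in WT F2 (-0.23 to 0.015), Serpinc1 (-0.21 to 0.32), Apoc3 (-0.0599 to 0.18) and Serpina1d (-0.074 to 0.39), and in the interaction Alb (-0.28 to 0.72), Ttr (-0.16 to 0.16), Apoh (-0.26 to 0.21), F2 (-0.50 to 0.23), Serpinc1 (-0.073 to 0.45) and Apoc3 (-0.0945 to 0.16). For knockout against wild type so did Hlf at ZT16 (-0.15 to 0.014) and Hnf4a at ZT16 (-0.24 to 0.0069). Depth limits F2 and Fetub most, then Serpinc1 and, in KO, Alb. At ZT4 the KO libraries together held 151 reads for Serpinc1 and 125 for Alb.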
